A study of Mus musculus with 18 samples.

Results

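Cytotoxic lymphocytes, which are natural killer (NK) cells and killer T cells, destroy other cells by releasing granules at the point of contact. The pore-forming protein perforin lets the granule proteases, called granzymes, into the cell that is attacked. Receptors on the lymphocyte surface decide whether the granules are released, and the same cells secrete interferon gamma, which activates macrophages. Lymphocytes of this kind are known among the leukocytes that enter the wall of an abdominal aortic aneurysm (AAA).

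Here 9 such genes of 36232 measured genes were followed, and each was found by its gene symbol, which named exactly 1 transcript cluster of the array. They are the granzyme genes Gzma, Gzmb and Gzmk, the perforin gene Prf1, the granule membrane protein gene Nkg7, the receptor genes Klrd1 (CD94), Klrk1 (NKG2D) and Ncr1 (NKp46), and the interferon gamma gene Ifng. The Mouse Transcriptome Array 1.0 was hybridized with RNA of abdominal aorta, cut in pieces of about 1 mm, from 18 male mice at 1 array per mouse. The PPE + Lenva systemic group held 7 mice in which an aneurysm was induced with porcine pancreatic elastase (PPE) and which then received lenvatinib, an inhibitor of several receptor tyrosine kinases, at 5 mg/kg in DMSO by daily gavage between day 7 and day 24. The PPE group held 6 mice with an elastase-induced aneurysm and no lenvatinib, and the normal aorta group held 5 untreated mice. The experiment ended on day 28. The labels describe ApoE-/- mice and give an age of 10 weeks for the mice with aneurysms, but none for the normal mice, and the methods use a C57BL/6J wild-type background for elastase aneurysms. The strain is therefore not settled. RNA integrity numbers lay between 5.7 and 9.8 over the series and are not given per array. Whether the PPE mice of these arrays received a vehicle by gavage is not stated, so drug, vehicle, gavage and anesthesia cannot be told apart in PPE + Lenva systemic vs. PPE. In PPE vs. normal aorta, the operation and the elastase cannot be told apart.

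All values are log2 signals, on which a difference of 1 is a 2-fold change. Every cluster has the authors' group averages and SDs, but signals per array were analyzed for 11121 of 65956 clusters only, a set selected on an overall difference between the 3 groups. Nkg7, Klrd1, Klrk1, Ncr1 and Gzmk have signals per array, and Gzma, Gzmb, Prf1 and Ifng have group averages and SDs only. Since clusters had to differ between groups to enter that set, its holding of 5 of the 9 genes is no support for a difference. Myh11, the myosin heavy chain of contractile smooth muscle, averaged 14.81 in PPE + Lenva systemic, 13.45 in PPE and 16.57 in normal aorta. Each group thus gave an RNA signal for this smooth muscle marker. By immunohistochemistry the paper reports its protein as absent from PPE aneurysms, and protein was not measured here. Because whole tissue was measured, more cytotoxic cells and more RNA per cell cannot be told apart. The array medians over the clusters with signals lay between 5.45 and 5.66.

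Promoters are shown for 3 of the 5 genes with signals per array, to set the start sites beside the values that follow. RefSeq gave a promoter for 8 of the 9 genes (build GRCm38.p6). The 250 bases before the start were searched on both strands for a T-box motif (GGTGTGA), a RUNX motif (TGTGGTT) and a STAT motif (TTCNNNGAA), named after families of transcription factors that act in lymphocytes. Matches are in capitals. The Nkg7 window is chr7:43436888-43437137 on the plus strand, the Ncr1 window chr7:4337474-4337723 on the plus strand and the Klrk1 window chr6:129623865-129624114 on the minus strand.
Nkg7: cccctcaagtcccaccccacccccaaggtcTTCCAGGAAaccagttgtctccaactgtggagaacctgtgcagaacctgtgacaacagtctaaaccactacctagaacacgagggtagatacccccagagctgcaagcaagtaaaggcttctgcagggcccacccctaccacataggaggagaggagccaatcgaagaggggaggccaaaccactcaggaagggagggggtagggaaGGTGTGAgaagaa
Ncr1: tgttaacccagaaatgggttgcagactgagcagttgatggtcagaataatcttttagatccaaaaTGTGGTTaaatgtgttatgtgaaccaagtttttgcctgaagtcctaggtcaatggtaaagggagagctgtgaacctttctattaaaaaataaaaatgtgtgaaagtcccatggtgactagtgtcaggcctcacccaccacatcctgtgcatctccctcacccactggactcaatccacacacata
Klrk1: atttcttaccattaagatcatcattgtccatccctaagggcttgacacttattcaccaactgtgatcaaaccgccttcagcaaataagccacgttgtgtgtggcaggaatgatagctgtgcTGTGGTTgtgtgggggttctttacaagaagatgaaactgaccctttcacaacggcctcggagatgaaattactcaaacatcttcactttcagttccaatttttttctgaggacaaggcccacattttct

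The Nkg7 window held a T-box match that begins 13 bases before the start and a STAT match that begins 220 bases before it. A RUNX match began 185 bases before the start of Ncr1 and 129 bases before that of Klrk1. Among the other genes, RUNX matches stood in the windows of Gzma and Gzmb, a T-box match in that of Gzmk and a STAT match in that of Ifng. Of the 8 genes with a promoter, 7 had a match to any of the motifs. Over 32851 promoters, 3.33% held the T-box letters, 4.40% the RUNX letters and 7.02% the STAT letters. The share of promoters with a match to any of the motifs was not computed, but it cannot exceed the sum of these shares. Whether the count of genes departs from it was not tested. A match describes the letters of the window and does not show that a factor binds there.

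Nkg7 encodes a membrane protein of cytotoxic granules that takes part in their release. Its cluster lies on chr7:43437073-43438249 (mm10, plus strand). In PPE + Lenva systemic the 7 arrays ranged between 6.14 and 8.70 with a median of 7.26. The 6 PPE arrays ranged between 6.49 and 8.0 with a median of 7.21, and the 5 normal arrays read 5.85, 5.62, 5.74, 6.10 and 6.21. Every PPE array stood above every normal array, whereas 5 of 7 PPE + Lenva systemic arrays did. The mean was 7.29 ± 0.99 in PPE + Lenva systemic (SD, n = 7), 7.23 ± 0.55 in PPE (n = 6) and 5.90 ± 0.25 in normal aorta (n = 5). PPE exceeded normal aorta by 1.33 ± 0.41 (SE), a 2.51-fold difference whose 95% interval reached between 1.39-fold and 4.54-fold. Its limma-type adjusted p was 0.0738, and the two-sided exact permutation test of the same arrays gave p = 0.00433. Permutation p-values exist only for the 5 genes in the set selected on a difference between groups. Here and below they therefore tend to be low and are no independent check of the adjusted p.

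Klrd1 encodes CD94, which pairs with NKG2 proteins to form receptors that read a nonclassical MHC molecule. Its cluster lies on chr6:129591782-129598775 (plus strand). The PPE + Lenva systemic arrays ranged between 5.69 and 7.92 (median 6.70), the PPE arrays between 5.00 and 7.68 (median 6.33), and the normal arrays read 4.74, 4.74, 4.58, 5.09 and 6.04. PPE replicate 5, at 5.00, and PPE + Lenva systemic replicate 3, at 5.69, both lay below normal replicate 5. The means were 6.90 ± 0.79 in PPE + Lenva systemic, 6.37 ± 0.86 in PPE and 5.04 ± 0.59 in normal aorta. PPE was 2.52-fold above normal aorta (log2 difference 1.34, SE 0.44, adjusted p = 0.0938, exact permutation p = 0.0173).

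Klrk1 encodes NKG2D, an activating receptor for stress-induced ligands. Its signals ranged between 5.64 and 7.49 (median 6.37) in PPE + Lenva systemic and between 4.99 and 6.62 (median 6.18) in PPE. The normal arrays read 5.14, 5.01, 4.78, 5.24 and 5.82, so the groups overlapped. PPE exceeded normal aorta by 0.80 ± 0.34 (SE), with an adjusted p of 0.206 and an exact permutation p of 0.0368. This cluster spans 263056 bases (chr6:129360809-129623864, minus strand), against 13581 bases for the gene, and 5 further genes with clusters of their own on that strand, Clec12b, Clec1a, Clec7a, Olr1 and 1700101I11Rik, overlap it. Of these, Clec7a, the beta-glucan receptor of macrophages, was 3.80 higher in PPE than in normal aorta (adjusted p = 0.0446) and 4.45 higher in PPE + Lenva systemic than in normal aorta (adjusted p = 0.0136). Its signal had r = 0.901 with that of Klrk1 over the 18 arrays, which share the differences between groups. Clec1a went the other way, with r = -0.662. It differed from normal aorta by -0.43 in PPE (adjusted p = 0.163) and by -0.59 in PPE + Lenva systemic (adjusted p = 0.0405). In PPE vs. normal aorta Clec12b differed by -0.08, Olr1 by -0.28 and 1700101I11Rik by 0.12, and none of them was called. The part of such neighbors in the Klrk1 signal was not tested.

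Ncr1 encodes NKp46, an activating receptor that in mice is largely confined to NK cells and innate lymphoid cells. Its cluster lies on chr7:4337724-4345164 (plus strand). Arrays of PPE + Lenva systemic ranged between 5.19 and 7.09 (median 5.95), those of PPE between 4.88 and 6.55 (median 5.52), and the normal arrays read 4.59, 4.71, 4.98, 5.21 and 5.25. Of the 6 PPE arrays, 4 stood above every normal array, and replicates 5 and 6, at 4.88 and 5.10, lay inside the normal range. PPE exceeded normal aorta by 0.59 ± 0.33 (SE), which did not pass the test (adjusted p = 0.380, exact permutation p = 0.0520).

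Gzmk, the granzyme K gene, gave low signals throughout, with a range of 3.85 to 4.82 (median 4.17) in PPE + Lenva systemic and of 3.86 to 4.15 (median 4.07) in PPE, whereas normal arrays read 3.75, 3.90, 3.78, 3.81 and 4.0. The difference of 0.19 ± 0.14 (SE) between PPE and normal aorta did not pass the test (adjusted p = 0.560, exact permutation p = 0.0260). Its cluster (chr13:113171608-113225908, minus strand) is 54301 bases long, whereas the gene spans 9336 bases.

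**Figure D1:**
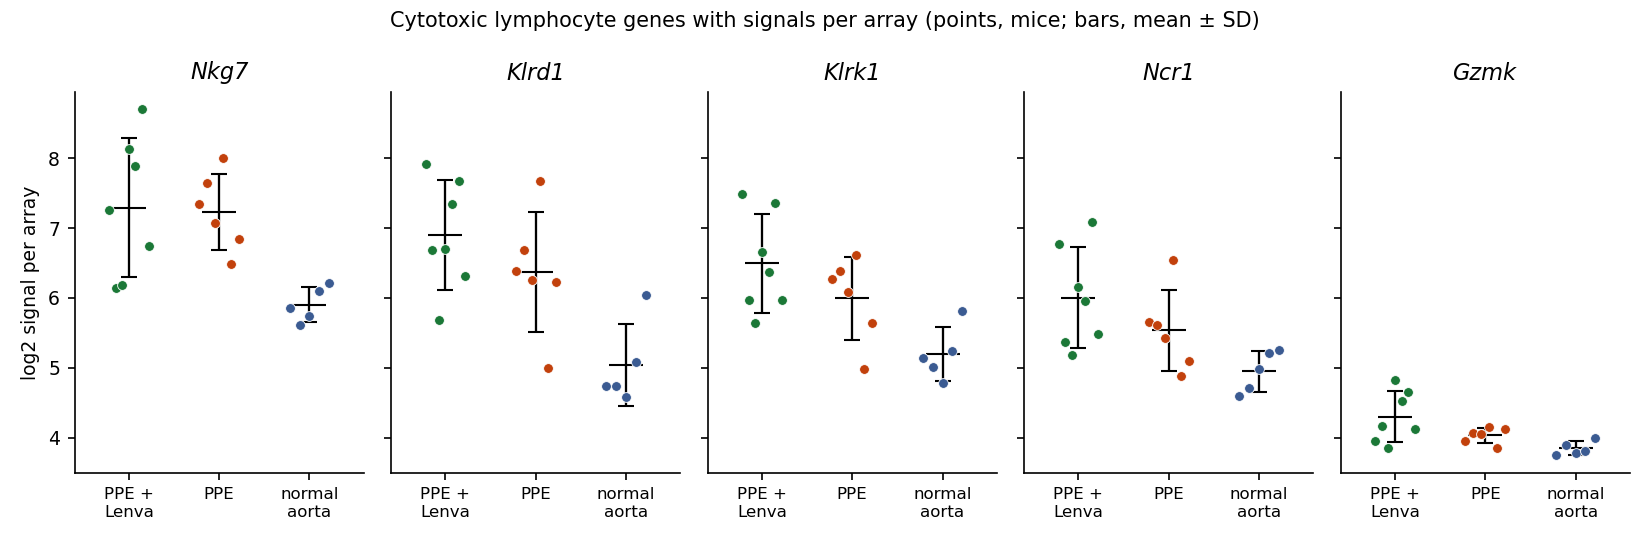
Log2 signal of each array (points) by group, with mean and SD (bars), for the 5 genes with signals per array. All 6 PPE arrays of Nkg7 stand above the 5 normal arrays, while Klrd1, Klrk1, Ncr1 and Gzmk overlap between PPE and normal aorta.

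The other effector genes were known by group averages alone and lay close together between groups. Gzma, on chr13:113093825-113100981 (minus strand), encodes granzyme A and averaged 4.77 ± 0.50 in PPE + Lenva systemic, 4.68 ± 0.23 in PPE and 4.53 ± 0.14 in normal aorta (authors' averages ± SD). Gzmb, on chr14:56258836-56262260 (minus strand), encodes granzyme B, a protease that starts apoptosis, and averaged 4.16 ± 0.64, 3.81 ± 0.41 and 3.73 ± 0.21 in PPE + Lenva systemic, PPE and normal aorta. Both granzyme averages exceeded those of normal aorta by less than the larger SD of the groups compared, and neither gene was called in any comparison.

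Prf1, the perforin gene on chr10:61297836-61304263 (plus strand), averaged 4.10 ± 0.27 in PPE + Lenva systemic, 4.19 ± 0.23 in PPE and 3.97 ± 0.23 in normal aorta. Of the 9 genes it alone had an average that was lower in PPE + Lenva systemic than in PPE. Ifng, on chr10:118441047-118445892 (plus strand), averaged 3.69 ± 0.15, 3.57 ± 0.10 and 3.55 ± 0.19 in PPE + Lenva systemic, PPE and normal aorta. The PPE minus normal difference of Ifng was 0.02, with a 95% interval between -0.17 and 0.21, whose upper end is a 1.15-fold higher array signal. Background was not measured, so at so low a signal this does not bound the change in transcript. Both Ifng and Gzmb lay below 4.17 in all group averages, the median over clusters of the highest group average.

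**Figure D2:**
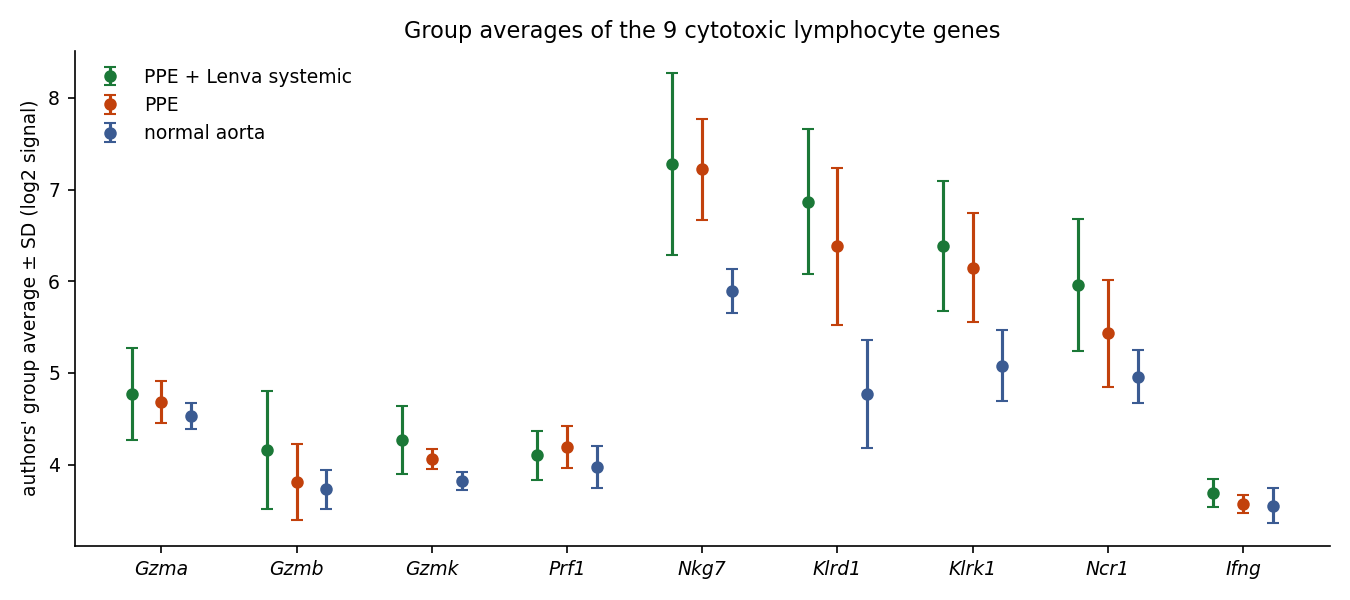
The authors' group averages (points) and SDs (bars) of the 9 genes on the log2 signal scale, by group. For Gzma, Gzmb, Prf1 and Ifng the group averages of a gene lie within 0.43 of each other, whereas the SD bars of normal aorta lie below those of both aneurysm groups for Nkg7, Klrd1 and Klrk1.

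PPE vs. normal aorta asked how the elastase aneurysm differed from the intact vessel. None of the 9 genes was called at an adjusted p under 0.05, against 2.16% of 36047 genes called higher and 2.14% called lower. Over all 65680 clusters tested, 4.05% were called, 1.42% higher and 2.63% lower. Without adjustment 3 of the genes reached p under 0.05, Nkg7, Klrd1 and Klrk1, against 20.5% of all genes. All 9 differences were above 0, with a median of 0.22, whereas the median over all genes was -0.01 and 43.5% of genes lay above 0. Groups did not overlap for Nkg7 alone among the 5 genes with signals per array, and for 9.21% of the 6874 genes with such signals every PPE array stood above every normal array.

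PPE replicate 5 decided part of this comparison. It gave the lowest PPE signal in 5 of 5 genes, and PPE replicate 4 gave the highest in 5 of 5. Without PPE replicate 5, Klrd1 (adjusted p = 0.0294) and Nkg7 (0.0496) would have been called, and Nkg7 would also have been called without PPE + Lenva systemic replicate 6 (0.0443). Nkg7 was also called with the dim clusters left out (adjusted p = 0.0412), and Klrd1 with the authors' averages in place of the plain means (adjusted p = 0.0413).

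PPE + Lenva systemic vs. PPE asked how aneurysms of mice given lenvatinib by gavage differed from aneurysms of mice without it. None of the 9 genes was called, and none reached an unadjusted p under 0.05, against 0 clusters called and 5.68% of genes at that unadjusted p. The differences were above 0 in 8 of 9 genes, against 50.8% of all genes, with a median of 0.27 against 0.01 over all genes. Klrd1 differed by 0.53 (95% interval -0.31 to 1.38, exact permutation p = 0.260), Klrk1 by 0.50 (-0.17 to 1.16, p = 0.212 by exact permutation) and Ncr1 by 0.47 (-0.18 to 1.11, exact permutation p = 0.230). Gzmk came closest to an unadjusted call, with a difference of 0.27 (-0.01 to 0.55, unadjusted p = 0.0574, exact permutation p = 0.128).

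Nkg7 differed by 0.06 between PPE + Lenva systemic and PPE, and its 95% interval allowed between 0.60-fold and 1.80-fold. The sign of this difference turned on leaving out any of 5 arrays. Prf1 differed by -0.09 (-0.37 to 0.19), Gzma by 0.09 (-0.30 to 0.48), Gzmb by 0.35 (-0.18 to 0.88) and Ifng by 0.12 (-0.05 to 0.29). None of these intervals excludes 0, and the intervals of Klrd1, Klrk1 and Ncr1 reach beyond a 2-fold higher level in PPE + Lenva systemic.

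PPE + Lenva systemic vs. normal aorta shares its normal arrays with the first comparison and its treated arrays with the second. Here 3 of the 9 genes were called higher, Klrd1, Klrk1 and Nkg7, against 4.28% of 36047 genes called higher and 2.8% called lower. Over all clusters 6.14% were called, 2.79% higher and 3.35% lower. Klrd1 was 3.65-fold higher (log2 difference 1.87, SE 0.42, adjusted p = 0.0151, exact permutation p = 0.00379), with 6 of 7 treated arrays above all normal arrays. Nkg7 was 2.62-fold higher (1.39, SE 0.39, adjusted p = 0.0440, exact permutation p = 0.0152), and Klrk1 was 2.46-fold higher (1.30, SE 0.33, adjusted p = 0.0281, exact permutation p = 0.00631). The cluster of Klrk1 overlaps Clec7a, Clec1a and other genes on the same strand, and their part in this call was not tested.

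Of the genes not called, Ncr1 was 1.05 above normal aorta (SE 0.32, adjusted p = 0.0620) and Gzmk 0.46 above it (SE 0.14, adjusted p = 0.0609). Gzmb differed by 0.43, Gzma by 0.24, Ifng by 0.14 and Prf1 by 0.13, none at an unadjusted p under 0.05. The median over the 9 genes was 0.46, against -0.01 over all genes, and 5 of 9 reached an unadjusted p under 0.05 against 21.6% of genes. Every treated array stood above every normal array in none of the 5 genes and in 11.9% of the genes with signals.

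The call of Klrd1 was made on leaving out any single array, but those of the other called genes depended on the arrays. Nkg7 lost its call on leaving out 13 of 18 arrays, which were each of the 5 normal arrays, PPE replicates 1, 2, 3 and 6, and PPE + Lenva systemic replicates 1, 4, 5 and 6 (highest adjusted p 0.102). Klrk1 lost its call on leaving out normal replicates 1, 2, 3 or 4 or PPE + Lenva systemic replicates 1, 4 or 6 (highest adjusted p 0.0819). Without PPE + Lenva systemic replicate 3, the lowest treated array for 4 of the 5 genes, all 5 genes with signals were called.

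**Figure D3:**
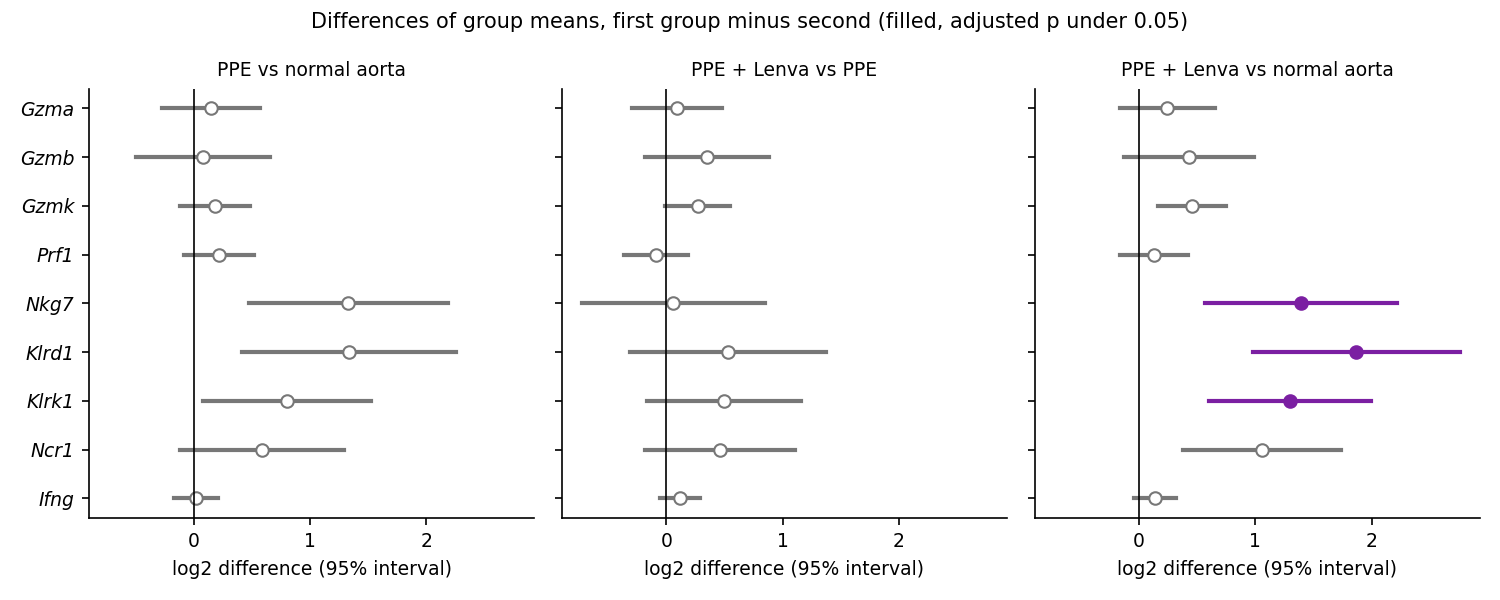
Log2 differences of group means with 95% intervals for the 9 genes in each comparison, first group minus second; filled points passed an adjusted p of 0.05. Only Nkg7, Klrd1 and Klrk1 in PPE + Lenva systemic vs. normal aorta are filled, and all intervals of PPE + Lenva systemic vs. PPE cross 0.

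The order of the group averages was PPE + Lenva systemic over PPE over normal aorta in 8 of the 9 genes. The share of all genes in that order was not computed, so the count does not set these genes apart. Neighbors in that order differed beyond the test's threshold in no gene. Within groups, the same arrays tended to be high or low. Normal replicate 5 was the highest normal array in 5 of 5 genes, and PPE + Lenva systemic replicates 1, 4 and 6 supplied the highest treated array. The arrays stood alike for markers of other leukocytes. PPE replicate 5 had the lowest mean over 12 T cell genes in its group (5.34, against a PPE median of 6.14) and over 13 monocyte and macrophage genes (10.38, against 11.81), and normal replicate 5 had the highest of its group in both (5.54 and 10.45, against medians of 5.12 and 9.44).

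**Figure D4:**
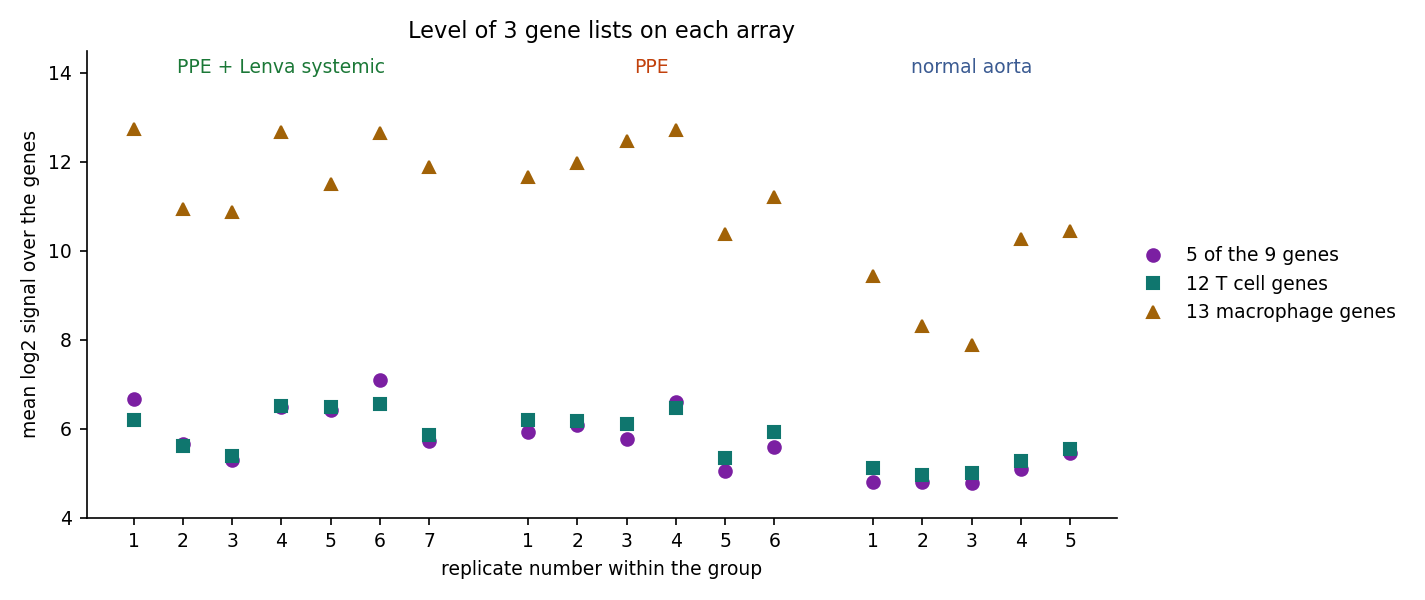
Mean log2 signal on each array over the 5 genes with signals per array (circles), 12 T cell genes (squares) and 13 monocyte and macrophage genes (triangles), by group and replicate. PPE replicate 5 is the lowest PPE array and normal replicate 5 the highest normal array in all 3 lists.

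Likeness was measured as Pearson's r over the 18 arrays with the 4984 genes compared, which share their arrays and the differences between groups, and is a description only. Nkg7 was most like Cd5, a T cell surface protein (r = 0.955, and 0.928 after the group means were removed), followed by Gpr132, Il2rb, Cd4 and Parvg. Klrd1 was most like Clec12a (0.960) and Klrc1 (0.958), its NKG2A partner. Klrk1 followed Samd3 (0.979), Klra2, Klrc1, Ms4a4b and Clec12a (0.966). The Clec12a gene overlaps the span of the Klrk1 cluster, with its own cluster on the other strand. Ncr1 followed the chemokine gene Cxcl10 (0.955), Fbxw17 (0.954), Ifit1bl1, Cd40 and Il1rn. Gzmk followed the T cell receptor segments Trav7d-2 (0.871) and Traj47 (0.869). For the mean of the 5 genes the closest were Klrc1 (0.982), Cd2 (0.976), Pilra (0.976), Parvg and Gpr18.

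Other receptors of NK cells were called upward alone. Of 18 measured genes, 3 were called higher in PPE vs. normal aorta and 9 in PPE + Lenva systemic vs. normal aorta, and none lower, with all 18 differences above 0 in both. Over all genes, 2.16% were called higher in the former comparison and 4.28% in the latter, and 43.5% and 45.0% had differences above 0. These shares stand beside the counts of each list below. Slamf7, an activating receptor also carried by macrophages, averaged 9.31 ± 1.16 in PPE + Lenva systemic, 9.30 ± 0.93 in PPE and 6.47 ± 1.24 in normal aorta, and rose by 2.82 in PPE (adjusted p = 0.0176). Klrb1b, an inhibitory receptor, rose by 2.42 (adjusted p = 0.0344) and Klrb1f by 1.58 (adjusted p = 0.0390) in PPE. Klrc1, which encodes NKG2A, was 1.20 higher in PPE without passing the test (adjusted p = 0.0612) and 1.52 higher in PPE + Lenva systemic than in normal aorta (adjusted p = 0.0131). The list median was 0.46 in PPE vs. normal aorta and 0.72 in PPE + Lenva systemic vs. normal aorta. The first count fell to 0 or 1 without normal replicate 1, 2 or 3 or PPE replicate 1, 2, 3 or 4, and the second to between 3 and 5 without normal replicate 1, 2 or 3 or PPE + Lenva systemic replicate 1 or 6.

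The adaptors that carry the signal of these receptors divided. Tyrobp (DAP12) averaged 10.94 ± 1.23 in PPE + Lenva systemic, 10.56 ± 0.89 in PPE and 7.42 ± 1.12 in normal aorta, a rise of 3.14 in PPE (adjusted p = 0.00856). Fcer1g, the shared Fc receptor gamma chain, rose by 3.27 in PPE (adjusted p = 0.0127). Hcst (DAP10), the partner of NKG2D, differed by 0.28 (adjusted p = 0.168), and Cd247, the zeta chain of the T cell receptor, by 0.08 (adjusted p = 0.543). Macrophages also make Tyrobp and Fcer1g. Of 13 monocyte and macrophage genes, 11 were called higher in PPE vs. normal aorta and 13 in PPE + Lenva systemic vs. normal aorta. All 13 were higher at an unadjusted p under 0.05 in both. The mean over those 13 genes ranged between 10.88 and 12.74 in PPE + Lenva systemic, between 10.38 and 12.71 in PPE and between 7.89 and 10.45 in normal aorta, and its part in these results was not tested. The macrophage count in PPE vs. normal aorta was between 5 and 7 without normal replicate 2 or 3 or PPE replicate 1, 2, 3 or 4.

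T cell genes were also called in the upward direction alone. Of 14 measured, 4 were called higher in PPE vs. normal aorta and 10 in PPE + Lenva systemic vs. normal aorta, with none lower. The shares of all genes called higher were 2.16% and 4.28%. Cd4 rose by 1.35 in PPE (adjusted p = 0.0132) and Icos, a costimulatory receptor, by 1.61 (adjusted p = 0.0362). For the coreceptor of killer T cells, Cd8a differed by 0.40 and Cd8b1 by 0.41 in PPE vs. normal aorta, and neither passed the test (adjusted p = 0.454 and 0.378). The mean over the 12 T cell genes with signals ranged between 5.40 and 6.56 in PPE + Lenva systemic, between 5.34 and 6.47 in PPE and between 4.95 and 5.54 in normal aorta. How far T cells or NK cells supply the signals of the 9 genes was not tested. The count in PPE vs. normal aorta was 10 without PPE replicate 5 and 1 or 2 without any other PPE array or without normal replicate 1, 2, 3 or 4. The count in PPE + Lenva systemic vs. normal aorta was between 0 and 3 without normal replicate 1, 2 or 3 or PPE + Lenva systemic replicate 1, 4 or 6.

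Among 9 other granule genes, Ctsc alone was called in PPE vs. normal aorta, with a rise of 2.12 (adjusted p = 0.0439). Ctsc encodes cathepsin C, which activates progranzymes and is also made by macrophages. Ctsw, a cathepsin of cytotoxic lymphocytes, averaged 6.77 ± 0.86 in PPE + Lenva systemic, 6.64 ± 0.78 in PPE and 5.15 ± 0.53 in normal aorta. It was called in PPE + Lenva systemic vs. normal aorta (1.62, adjusted p = 0.0291) and not in PPE vs. normal aorta (1.50, adjusted p = 0.0598). Lamp1, a lysosome membrane protein exposed on degranulation, and Serpinb9, an inhibitor of granzyme B, differed by 0.34 and -0.16 in PPE vs. normal aorta and were not called in any comparison. Leaving out any of 9 arrays removed the call of Ctsc, among them normal replicates 1, 2 and 3 and PPE replicates 1, 2, 3 and 4. The count of 2 in PPE + Lenva systemic was 1 without normal replicate 1, 2, 3 or 4 or PPE + Lenva systemic replicate 1, 4 or 6. Of the 6 genes of granule release, Ap3b1, a subunit of the AP-3 adaptor complex, was called in PPE (0.54, adjusted p = 0.0325) and in PPE + Lenva systemic (0.62, adjusted p = 0.0101) vs. normal aorta. Stxbp2, Lyst and Rab27a were not called in any comparison. The PPE count was 0 without normal replicate 2 or 3 or PPE replicate 1, 2, 3 or 4, and 2 without PPE replicate 5 or PPE + Lenva systemic replicate 2, 3, 4 or 6.

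Among transcription factors that direct the killer program, Tbx21 (T-bet) averaged 4.12 ± 0.09 in PPE + Lenva systemic, 4.07 ± 0.12 in PPE and 4.09 ± 0.04 in normal aorta. Eomes differed by 0.16 (adjusted p = 0.256) and Runx3 by 0.35 (adjusted p = 0.0949) in PPE vs. normal aorta. Of 6 factors, Prdm1 (Blimp-1) alone was called in either comparison with normal aorta, at 0.44 in PPE (adjusted p = 0.0181) and 0.34 in PPE + Lenva systemic (adjusted p = 0.0441). The first call was lost without normal replicate 3, and the second on leaving out any of 12 arrays.

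Among 4 measured ligands of the receptors, Ulbp1, a ligand of NKG2D, rose by 0.81 in PPE (adjusted p = 0.0457) and by 0.92 in PPE + Lenva systemic (adjusted p = 0.0168) vs. normal aorta. H2-T23 (Qa-1), which the CD94 receptors read, was called in PPE + Lenva systemic vs. normal aorta (1.06, adjusted p = 0.0245) and not in PPE vs. normal aorta (0.98, adjusted p = 0.0534). H60a and H60c, also ligands of NKG2D, were not called. The call of Ulbp1 in PPE was lost without any normal array but replicate 5, without any PPE array but replicate 5, and without PPE + Lenva systemic replicate 7. The 2 calls in PPE + Lenva systemic were 0 without normal replicate 3 and 1 without normal replicate 1 or 2 or PPE + Lenva systemic replicate 1, 4 or 6. In the 7 genes of death receptors and their ligands, Tnf was called in PPE + Lenva systemic vs. normal aorta (1.40, adjusted p = 0.00851), and Fasl, the ligand of granule-independent killing, averaged 3.96 ± 0.08, 3.86 ± 0.13 and 3.85 ± 0.08 in PPE + Lenva systemic, PPE and normal aorta.

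Cytokines that induce cytotoxicity were measured with their receptors in 14 genes, of which 3 were called higher in PPE and 5 in PPE + Lenva systemic vs. normal aorta. All 5 were receptor chains. Il2rb, the chain shared by the receptors of IL-2 and IL-15, averaged 7.04 ± 0.80 in PPE + Lenva systemic, 7.04 ± 0.72 in PPE and 5.60 ± 0.32 in normal aorta (PPE vs. normal aorta, adjusted p = 0.0428). Il18r1 rose by 1.27 (adjusted p = 0.0186) and Il2rg, the common gamma chain, by 3.08 (adjusted p = 0.0344) in PPE. The cytokine genes Il12a, Il12b, Il15 and Il18 were not called, with PPE minus normal differences between -0.04 and 0.21. The count in PPE was 0 or 1 without normal replicate 1, 2 or 3 or PPE replicate 1, 2, 3 or 4, and 5 without PPE replicate 5. The count in PPE + Lenva systemic was between 1 and 3 without normal replicate 1, 2 or 3 or PPE + Lenva systemic replicate 1, 4 or 6, and 8 without PPE + Lenva systemic replicate 3.

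Ifng itself did not pass the test, and some genes downstream of it did. Of 5 genes of its receptor and signaling, 3 were called in PPE vs. normal aorta, among them the receptor chain gene Ifngr1, 0.64 higher (adjusted p = 0.0222), and the kinase gene Jak1, 0.57 higher (adjusted p = 0.0435). In PPE + Lenva systemic vs. normal aorta 4 of the 5 were called. Of 17 interferon gamma target genes, 2 were called in PPE vs. normal aorta and 14 in PPE + Lenva systemic vs. normal aorta, none lower, and list medians were 1.32 and 1.46. Cxcl9, a chemokine for activated T and NK cells, averaged 13.07 ± 2.19 in PPE + Lenva systemic, 12.09 ± 1.87 in PPE and 7.02 ± 2.01 in normal aorta, a rise of 5.07 in PPE (adjusted p = 0.0198). Ciita, the activator of MHC class II genes, rose by 1.37 in PPE (adjusted p = 0.0360). Many of these genes also respond to type I interferon. The target count in PPE was 8 without PPE replicate 5, 4 without PPE + Lenva systemic replicate 3, and 0 or 1 without normal replicate 1, 2 or 3 or PPE replicate 1, 2, 3 or 4. In PPE + Lenva systemic it was 1 or 2 without normal replicate 1, 2 or 3 or PPE + Lenva systemic replicate 1, 4 or 6, and 9 without replicate 5. The signaling count was 0 or 1 in PPE without normal replicate 2 or 3 or PPE replicate 1, 2, 3 or 4, and 1 in PPE + Lenva systemic without normal replicate 2 or 3.

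Of 10 lymphocyte chemokines and their receptors, 3 were called higher in PPE and 6 in PPE + Lenva systemic vs. normal aorta. Cxcl16 rose by 2.80 (adjusted p = 0.0313), its receptor gene Cxcr6 by 1.25 (adjusted p = 0.0465) and Cx3cr1 by 1.60 (adjusted p = 0.0344) in PPE. Ccl5, a chemokine stored by killer cells, averaged 9.33 ± 1.55 in PPE + Lenva systemic, 8.30 ± 0.79 in PPE and 6.13 ± 0.50 in normal aorta. It was called in PPE + Lenva systemic vs. normal aorta (3.20, adjusted p = 0.00590) and not in PPE vs. normal aorta (2.17, adjusted p = 0.0626). The count in PPE was 7 without PPE replicate 5 and 0 or 1 without any other PPE array or without normal replicate 1, 2, 3 or 4. In PPE + Lenva systemic vs. PPE no gene of these 12 lists was called, and no cluster of the array was. Counts that differ between the 2 comparisons with normal aorta are not a difference between PPE + Lenva systemic and PPE.

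**Figure D5:**
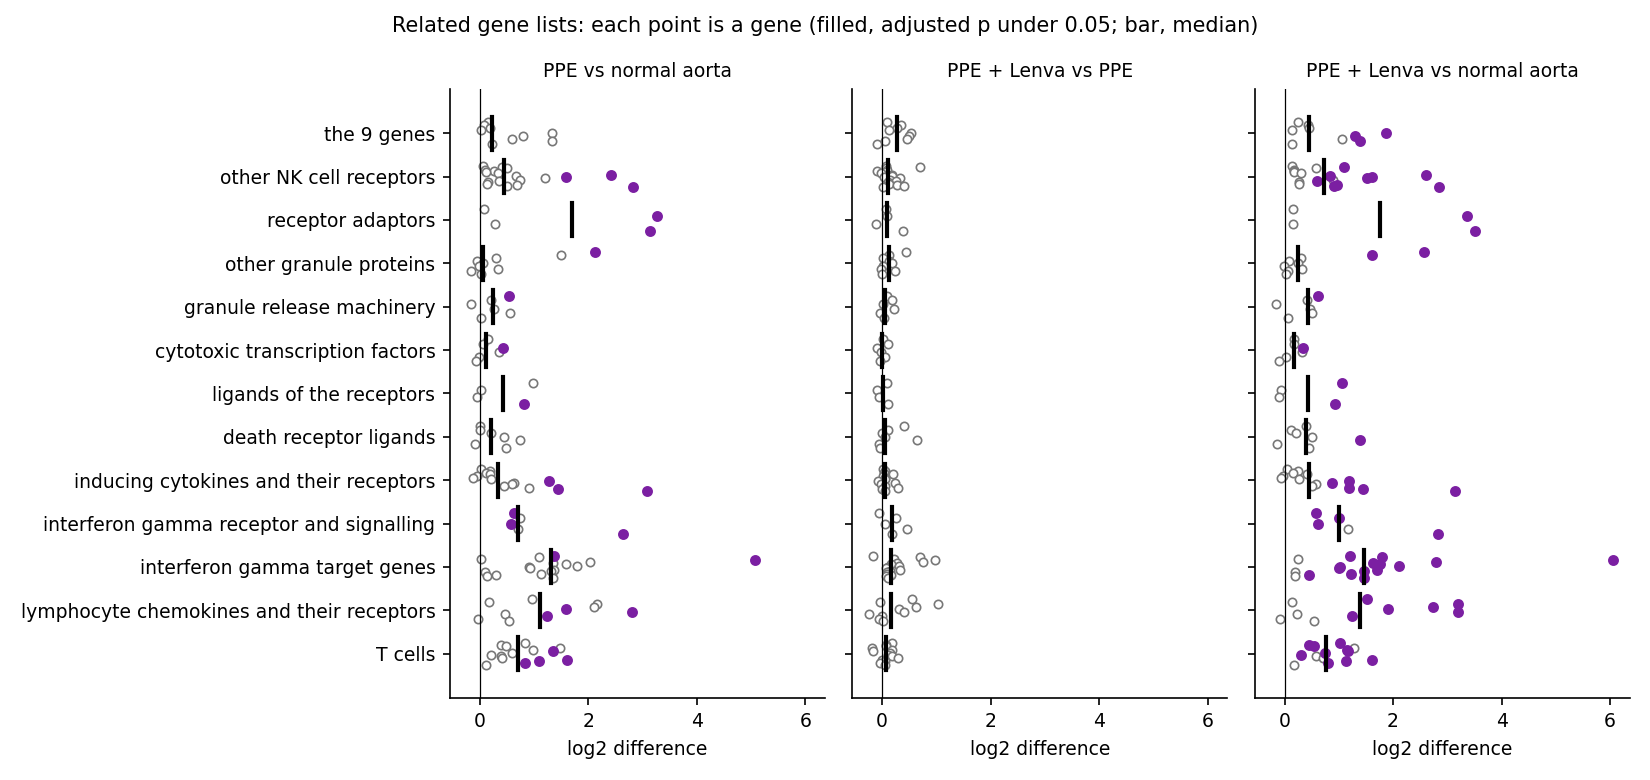
Log2 differences of the 9 genes and of 12 related lists in each comparison, first group minus second; each point is a gene, filled where its adjusted p was under 0.05, and the bar is the list median. Filled points lie above 0 in both comparisons with normal aorta, and there are none in PPE + Lenva systemic vs. PPE.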

How the data were processed

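The deposited values are log2 signals that the authors made with Transcriptome Analysis Console 4.0.1.36 and SST-RMA normalization (build mm10, per the submitters' processing notes and the study's methods). Deposited comparison tables give group averages, which for 98.6% of those checked lie within 0.01 of the Tukey biweight mean of the arrays, and SDs for 65956 transcript clusters. Their fold changes, p-values, false discovery rates and detection calls were not used. A deposited table of log2 signals per array holds 11121 clusters, and 98.2% of these had an F test p of 0.05 or less in a test computed here, so it is a selected set. Each of the 18 arrays had a column of values in it.

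Differences of plain means, or of the authors' averages where no array signals were held, were tested with limma 3.58.1 (R 4.3.3). The spread was pooled over 18 arrays (15 residual df) and shrunk with squeezeVar, with a prior from the whole table. The Benjamini-Hochberg adjustment ran over 65680 clusters, because 276 had no spread, and calls were made below an adjusted p of 0.05. With per-array signals, 15 two-sided exact permutation tests were added (numpy 2.4.6), and the 95% intervals used t quantiles from scipy 1.17.1. The procedure was tested on simulated data. Nothing in the sources gives scan dates, and the number of arrays limits the precision.

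The 9 genes and the lists were chosen with earlier results of these data known. Named genes are the 9 genes and those of each list with the smallest p in PPE vs. normal aorta. These were up to 4 genes of each related list and up to 3 of each cell type list. The rule also names the 5 genes most like each of the 5 genes with signals per array, and most like their mean. Clec7a and the other genes named as overlapping the Klrk1 cluster were added after their values were seen. So were Fasl, Tbx21, Cd8a, Cd8b1, Ccl5, Cpa3, Mcpt4 and the cytokine genes Il12a, Il12b, Il15 and Il18. Some genes that this rule names are not reported here. A gene with several clusters was represented by the brightest. Alternatives varied the variance prior, the means, the filter, the normalization, the array weights, the threshold and the arrays used.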

Additional observations from a re-analysis of the deposited data

How the results depend on the processing

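Of 873 single-gene values over the alternatives, 815 kept their direction and their side of the threshold, 26 gained and 26 lost a call, and 6 turned sign. All 6 were Nkg7 in PPE + Lenva systemic vs. PPE, at -0.018 with array weights and between -0.175 and 0.252 on leaving out 1 array (0.06 with all arrays). In PPE vs. normal aorta 2662 clusters were called, against 1633 adjusted over clusters with 1 gene symbol, 8190 over the clusters with array signals alone (a selected set), 4034 with dim clusters left out, 1616 at an unadjusted p under 0.05 and 2-fold, 988 at an adjusted p under 0.05 and 2-fold, 4150 with array weights, 1214 with the replicate block and between 1421 and 3542 without 1 array. The 9 genes held 0 calls there, against 3 over the clusters with array signals alone, 2 at an unadjusted p and 2-fold, 2 with array weights, 1 each with dim clusters left out, the deposited averages, the 2 groups alone or quantile normalization, and between 0 and 2 without 1 array. In PPE + Lenva systemic vs. PPE 0 clusters were called, against 2 over the clusters with array signals, 114 at an unadjusted p and 2-fold, 1 with array weights and between 0 and 1 without 1 array, while the 9 genes had 0 calls under each alternative. In PPE + Lenva systemic vs. normal aorta the 4034 clusters became 9003 over the clusters with array signals, 1682 at an unadjusted p and 2-fold, 1257 at an adjusted p and 2-fold, 1717 with the replicate block and between 2081 and 4402 without 1 array. The 3 calls among the 9 genes became 5 over the clusters with array signals, with dim clusters left out or with quantile normalization, 0 with the replicate block and between 1 and 5 without 1 array. Nkg7 also lost its call there with no shrinkage of the variance (adjusted p = 0.0703), with the prior of the clusters with array signals (0.0505) and with the 2 groups alone (0.0842). The causes were not tested. The labels do not tie replicate numbers to a shared animal, litter or day. The 16 pairs of arrays with the same number correlated between -0.575 and 0.492 in their deviations from group means. Of these pairs 6 lay over 0.1, and 2 arrays were closest to their own number. Whether arrays with the same number share a day or litter cannot be told from these correlations. A second-brightest cluster could not be tried, since each of the 9 genes has 1. Background was not measured here, so how far it limits low signals such as those of Gzmb and Ifng was not tested.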

Other observations

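Marker genes of cell types other than T cells and macrophages were called in both directions. Over all genes, 2.16% were called higher and 2.14% lower in PPE vs. normal aorta. In PPE + Lenva systemic vs. normal aorta these shares were 4.28% and 2.8%. Of 8 dendritic cell genes, 2 were called higher in PPE and 3 in PPE + Lenva systemic vs. normal aorta, with Itgax 2.37 higher in PPE (adjusted p = 0.0462) and Clec9a 1.09 higher (adjusted p = 0.0469). The count of 2 became 0 without any of 12 arrays and 1 without PPE + Lenva systemic replicate 1, and the count of 3 became 0 or 1 without normal replicate 1, 2 or 3 or PPE + Lenva systemic replicate 1, 4 or 6. Of 8 B cell and plasma cell genes, Jchain, the joining chain of secreted antibodies, was called in PPE vs. normal aorta (3.47, adjusted p = 0.0457) and none in PPE + Lenva systemic vs. normal aorta. Jchain averaged 7.19 ± 1.12 in PPE + Lenva systemic, 9.23 ± 2.51 in PPE and 5.76 ± 0.67 in normal aorta, and its call was lost on leaving out any of 14 of the 18 arrays. Of 5 measured genes of gamma delta T cells and innate lymphoid cells, Il7r rose by 2.78 in PPE (adjusted p = 0.0140) and by 3.10 in PPE + Lenva systemic (adjusted p = 0.00503), and Sox13 fell by 0.28 in PPE + Lenva systemic (adjusted p = 0.0334), a call lost without normal replicate 1, 2 or 3 or PPE + Lenva systemic replicate 1, 4 or 6. Of 8 neutrophil genes, Ngp fell by 0.37 in PPE (adjusted p = 0.0404) and by 0.35 in PPE + Lenva systemic (adjusted p = 0.0361), and Csf3r was called higher in PPE + Lenva systemic (0.83, adjusted p = 0.0480). The call of Csf3r was lost on leaving out any of 14 arrays, and that of Ngp on leaving out any of 8 arrays in PPE vs. normal aorta and any of 7 in PPE + Lenva systemic vs. normal aorta.

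Of 6 measured endothelial genes, 3 were called lower in PPE and 4 in PPE + Lenva systemic vs. normal aorta. Only 1 of the 6 had a difference above 0 in PPE, and none did in PPE + Lenva systemic. Vwf was lower by 2.18 in PPE on the log2 scale (log2 difference -2.18, adjusted p = 0.00933). Of 7 tested smooth muscle genes, 4 were called lower in PPE and 0 in PPE + Lenva systemic vs. normal aorta. At an unadjusted p under 0.05, all 7 were lower in PPE and 5 in PPE + Lenva systemic. Over all genes, 20.5% and 21.6% reached that p in either direction. The count of 4 became 1 or 2 without normal replicate 1, 2 or 3 or PPE replicate 1, 2, 4 or 6, and the count of 0 became 3 without normal replicate 5 or PPE + Lenva systemic replicate 5 and 1 without PPE + Lenva systemic replicate 2. Myh11 differed by -3.12 in PPE (adjusted p = 0.00481) and by -1.76 in PPE + Lenva systemic (adjusted p = 0.0683). Of 3 red blood cell genes, Slc4a1 was called in PPE vs. normal aorta (-0.23, adjusted p = 0.0497), a call lost on leaving out any of 15 arrays.

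Of 8 mast cell genes, Kit fell by 0.92 in PPE (adjusted p = 0.0101), and 2 fell in PPE + Lenva systemic vs. normal aorta. None was called in PPE + Lenva systemic vs. PPE, where 4 were lower at an unadjusted p under 0.05, against 5.68% of all genes in either direction. Cpa3, the mast cell carboxypeptidase, averaged 9.02 ± 1.18 in PPE + Lenva systemic, 10.65 ± 0.61 in PPE and 11.12 ± 0.49 in normal aorta (PPE + Lenva systemic vs. PPE, -1.63, adjusted p = 0.779). Mcpt4, a mast cell protease, averaged 7.75 ± 0.89 in PPE + Lenva systemic, 8.97 ± 0.65 in PPE and 8.74 ± 0.70 in normal aorta (-1.23, adjusted p = 0.779).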
